A study of Drosophila melanogaster with 9 samples.

Results

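The promoters of the translation initiation factor genes of Drosophila melanogaster were examined for their DNA accessibility at 3 temperatures. A promoter peak was a consensus peak within 500 bp of an annotated transcription start site (TSS), and those of genes whose symbol begins with eIF gave 42 peaks of 7945 promoter peaks and of 17175 peaks in all. They belong to 38 of the 44 annotated eIF genes, and the remaining 7903 promoter peaks served for comparison. Accessibility was probed by ATAC-Seq, in which a transposase inserts adaptors into open DNA so that reads accumulate there, in S2R+ cells, an established Drosophila line with features of hemocytes, the blood cells of the fly. Cultures grew for 36 h at 25 °C and then for 24 h at 14, 25 or 29 °C, with 3 replicate libraries at each temperature, and tagmentation took place at 25 °C in each case. The sample descriptions name no transgene, mutation or added agent for any library, and 25 °C is the usual culture temperature. The paper's methods give a higher seeding density for 14 °C, whereas the sample descriptions give the same density at each temperature. An effect of such a difference and one of temperature cannot be told apart.

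Translation initiation brings the small ribosomal subunit, with its initiator tRNA, to the start codon of an mRNA. The eIF4F complex binds the cap and unwinds the leader, eIF2 delivers the initiator tRNA and is recharged with GTP by eIF2B, eIF3 holds the small subunit and the mRNA together, and eIF1, eIF1A, eIF5 and eIF5B take part in scanning, start codon choice and joining of the large subunit. Phosphorylation of eIF2 and sequestration of eIF4E are the classical ways in which cells lower protein synthesis under stress. ATAC-Seq reads the opening of the promoters of these genes, not their transcripts or proteins, and in a bulk culture fewer cells with an open promoter and a lesser opening in each cell cannot be told apart.

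Counts in peaks were between 3290670 and 10805366 per library. Among the libraries at 14 °C, replicate 2 stood apart. The SD of its log2 counts over peaks was 1.06, against 0.743 and 0.773 in replicates 1 and 3. The SDs at 25 °C were 0.894, 0.948 and 1.15, and those at 29 °C 1.02, 1.32 and 1.05. Replicate 2 at 14 °C thus lay within the range of the other temperatures. It had 10459192 counts in peaks, against 3606693 and 6596744 in replicates 1 and 3. Whether replicate 2 or replicates 1 and 3 are atypical was not tested. The number of eIF peaks past the threshold turned on replicate 2 at 14 °C and is given with and without it, as are the values of the peaks described in full that passed without it. Promoter peaks were found for 7 of 10 hemocyte genes, with none at He, Hml and NimC1, and for 1 of 4 neuronal, 1 of 4 muscle, 1 of 3 germ line and 3 of 4 gut genes. No peak of the neuronal, muscle, germ line and gut lists passed the threshold between 14 and 29 °C, and 2 of 12 hemocyte peaks did, those of Col4a1 and vkg, both lower at 14 °C, against 1.22% of all peaks. The estimates of the gut peaks were above 0, and the medians of the other lists were below 0. The hemocyte peaks had a median log2 fold change, 14 over 29 °C, of -0.55, with 7 of 12 at an unadjusted p under 0.05. The 2 gut peaks had estimates of 0.77 and 0.96, both at an unadjusted p under 0.05, against 33.3% of all peaks. The medians were -0.67 for the neuronal, -0.26 for the muscle and -0.03 for the germ line list. At 25 °C the median was 70.4 counts per 1000000 counts in peaks per 500 bp for hemocyte peaks and 30.9 for gut peaks. The part of cell composition in the results was not tested.

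The DNA around the start sites of 10 eIF genes is printed here because core promoter elements differed in frequency between eIF and other promoters. Several of these 10 genes are also described below. Whether accessibility depends on the elements was not tested. Each stretch was read from the RefSeq copy of the dm6 genome on the strand of the gene, as the 150 bases before the annotated start and the 30 bases from it on. Capitals mark the DRE core, the motif 1 core, an E-box, a TATA box or a TCT initiator, all defined in the next paragraph. The first 4 have a TCT initiator near the annotated start and encode eIF3 subunits. eIF3e lies at chr3L:16786912-16787091, eIF3f1 at chr3R:4714153-4714332, eIF3g1 at chrX:2610307-2610486 and eIF3i at chr2L:4967746-4967925, all on the minus strand.
eIF3e: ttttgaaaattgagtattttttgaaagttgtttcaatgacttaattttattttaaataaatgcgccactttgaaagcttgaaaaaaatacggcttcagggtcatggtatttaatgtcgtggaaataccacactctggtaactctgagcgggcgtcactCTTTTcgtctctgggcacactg
eIF3f1: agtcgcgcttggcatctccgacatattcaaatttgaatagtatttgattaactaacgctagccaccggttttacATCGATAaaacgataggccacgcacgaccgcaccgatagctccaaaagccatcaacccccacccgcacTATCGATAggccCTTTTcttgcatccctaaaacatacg
eIF3g1: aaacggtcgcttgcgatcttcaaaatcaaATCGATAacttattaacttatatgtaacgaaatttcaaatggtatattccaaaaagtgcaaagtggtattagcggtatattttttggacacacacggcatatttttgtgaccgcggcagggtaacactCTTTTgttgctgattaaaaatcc
eIF3i: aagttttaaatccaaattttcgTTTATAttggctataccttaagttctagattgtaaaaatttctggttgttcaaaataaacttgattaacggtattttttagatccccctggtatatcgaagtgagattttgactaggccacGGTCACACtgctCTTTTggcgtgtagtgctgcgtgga
The next 3 hold several DRE cores: eIF2alpha at chrX:16446964-16447143, eIF2gamma at chr3R:15263429-15263608 and eIF3l at chr3L:12146068-12146247, all on the minus strand.
eIF2alpha: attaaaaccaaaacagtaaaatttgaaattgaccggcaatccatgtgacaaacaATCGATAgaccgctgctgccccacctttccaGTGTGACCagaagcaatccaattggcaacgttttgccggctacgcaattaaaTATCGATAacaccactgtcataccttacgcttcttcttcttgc
eIF2gamma: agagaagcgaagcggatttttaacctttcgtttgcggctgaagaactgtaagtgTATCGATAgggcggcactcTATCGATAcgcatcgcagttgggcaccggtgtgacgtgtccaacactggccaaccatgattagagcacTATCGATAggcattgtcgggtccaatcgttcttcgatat
eIF3l: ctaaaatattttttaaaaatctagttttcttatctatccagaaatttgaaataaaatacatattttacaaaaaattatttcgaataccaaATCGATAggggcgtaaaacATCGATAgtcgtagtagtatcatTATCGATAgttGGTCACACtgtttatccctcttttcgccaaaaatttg
The last 3 hold neither a DRE core nor a TCT initiator and encode members of the cap binding group: eIF4A at chr2L:5982213-5982392 and eIF4H1 at chrX:16449002-16449181 on the plus strand, and eIF4E1 at chr3L:9401776-9401955 on the minus strand.
eIF4A: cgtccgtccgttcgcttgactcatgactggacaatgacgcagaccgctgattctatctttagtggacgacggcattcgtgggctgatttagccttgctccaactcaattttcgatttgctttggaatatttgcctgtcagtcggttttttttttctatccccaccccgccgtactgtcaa
eIF4E1: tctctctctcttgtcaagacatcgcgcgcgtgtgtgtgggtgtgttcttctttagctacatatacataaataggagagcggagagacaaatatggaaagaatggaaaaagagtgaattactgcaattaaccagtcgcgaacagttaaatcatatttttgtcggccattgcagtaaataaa
eIF4H1: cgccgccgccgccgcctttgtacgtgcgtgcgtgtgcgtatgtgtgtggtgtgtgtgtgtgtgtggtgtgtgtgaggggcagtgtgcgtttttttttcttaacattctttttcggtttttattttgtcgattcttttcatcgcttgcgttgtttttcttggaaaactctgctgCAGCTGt

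Motifs were searched by their letters from 250 bases before to 50 bases after the start, in 1 promoter per gene, for 38 eIF genes and 7480 other protein-coding genes with a promoter peak. The DRE core, ATCGATA on either strand, which the factor DREF binds at many genes of growth and replication, was present in 19 eIF promoters (50.0%) and in 25.5% of the others. In eIF2gamma the core occurs at 3 places where its reading on both strands overlaps, and each such place was marked once. The motif 1 core, GGTCACAC on either strand, another element of broadly used fly promoters, was present in 8 eIF promoters (21.1%) and in 12.7% of the others. A TCT initiator, here CTTTC or CTTTT after C or T on the coding strand within 10 bases of the start, is known as the start element of ribosomal protein genes and other genes of the translation machinery. It was found in 6 eIF promoters (15.8%) and in 3.01% of the others. The 6 were those of eIF1A, eIF3e, eIF3f1, eIF3g1, eIF3i and eIF3m, of which 5 encode eIF3 subunits.

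The remaining motifs searched were present at lower shares in the eIF promoters than in the others. The initiator TCAGT, counted on the coding strand only where it began within 10 bases of the start, was found in 0 of 38 eIF promoters and in 12.2% of the others. Elsewhere in the window the same letters do occur, as in the printed stretch of eIF4A, and were not counted. The letters GAGAG, the core of GAGA factor sites, were present on either strand in 7 eIF promoters (18.4%) and in 32.1% of the others. TATAAA was present on either strand in 13 (34.2%) and in 43.1%, and the E-box CAGCTG in 5 (13.2%) and in 22.0%. These shares are descriptions of letters in a window around annotated starts, and matches of different motifs were allowed to overlap. Between 14 and 29 °C, the median log2 fold change was -0.25 for the 19 eIF genes with a DRE core and -0.17 for the 19 without one. It was -0.20 and -0.17 for the other promoters with and without it. For TATAAA it was -0.07 for the 13 eIF genes with it and -0.29 for the 25 without, beside -0.17 and -0.19 for the others. For the TCT initiator it was -0.17 for the 6 with it and -0.25 for the 32 without, beside -0.18 and -0.18. Splits by the motifs thus went in both directions and were not tested.

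The peaks themselves lay over the starts. Of the 42 eIF peaks, 34 covered an annotated TSS and 39 lay within 250 bp of one. The peak centre was upstream of every transcript of the gene in 20, in the 5′ UTR of at least 1 transcript in 16, in an intron in 4 and in a coding exon in 2, those of eIF2D and eIF3f2. A window shared with the start of another gene was more frequent than elsewhere, with 22 of 42 (52.4%) against 34.1% of the other promoter peaks. Among the neighbours are RpL28, a ribosomal protein gene that shares the peak of eIF1, and Su(var)3-9, a heterochromatin histone methyltransferase gene that shares the start region of eIF2gamma. For these 22 peaks the reads cannot be assigned to 1 of the genes. Among them are the peaks of eIF1A, eIF2Bepsilon, eIF4EHP, eIF4G2 and eIF4H1 and both peaks of eIF2gamma and of eIF3b. eIF2Bbeta, eIF2gamma, eIF3b and eIF5B had 2 peaks each.

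The eIF genes without a promoter peak were eIF3d2, eIF3g2, eIF4E3, eIF4E4, eIF4E5 and eIF4G1, of which 3 are paralogs of the cap binding protein eIF4E. The nearest peak edge was 1122 bp from the start of eIF3d2 and between 16529 and 55829 bp from the starts of the other 5. eIF4G1, the gene of the main scaffold of eIF4F, lies on chromosome 4, and its start was 17068 bp from the nearest peak. The paralog eIF4G2, known in flies from spermatogenesis, had a promoter peak, shared with CG33111, at 80.8 CPM per 500 bp at 25 °C.

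At 25 °C the median level of the eIF promoter peaks was slightly above that of the other promoter peaks, but not among those with no other gene in the window. Levels are given as counts per 1000000 counts in peaks (CPM) per 500 bp of peak, since 3 of the 42 peaks, those of eIF3l, eIF3m and eIF5, were wider than 500 bp. The median was 48.1 CPM per 500 bp for the eIF peaks and 42.5 CPM per 500 bp for the other promoter peaks. It was 56.6 CPM per 500 bp for the 22 eIF peaks shared with another gene and 40.1 for the 20 with no other gene. The other promoter peaks were not split in this way. Per library at 25 °C, the medians of the eIF peaks were 44.6, 47.1 and 50.0 CPM per 500 bp, and those of the other promoter peaks 41.1, 41.4 and 45.5 CPM per 500 bp. The difference had the same sign in all 3 libraries (0.15 ± 0.04 on the log2 scale, SD, n = 3). Of the 42 peaks, 4 were among the highest 10% of all promoter peaks, 11 among the highest 25% and 5 among the lowest 25%.

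The levels of individual eIF promoters covered an 11.3-fold range. The tallest peak was that of eIF4A, the DEAD-box helicase of eIF4F, at 208 CPM per 500 bp. Next were the upstream region of eIF3b, which is shared with Patronin, at 182, and eIF2Bepsilon, the catalytic subunit of eIF2B, at 146. The peak of eIF2Bepsilon is shared with Ocrl. The lowest were eIF4B, a cofactor of the helicase, at 18.5 CPM per 500 bp, eIF3g1 at 18.6 and the downstream peak of eIF2Bbeta at 20.5. The replicates of neighbours in this order overlapped. eIF4A had 184, 198 and 244 CPM at 25 °C and the upstream eIF3b peak 147, 186 and 213 CPM, both over 500 bp, whereas the 3 lowest peaks had at most 27.6 CPM in any library at 25 °C. Subunits of 1 complex also differed. Apart from the upstream eIF3b peak, the eIF3 peaks ranged from 18.6 CPM per 500 bp for eIF3g1 to 70.3 for eIF3e, with 39.5 over the start of eIF3b. Both eIF3b peaks are shared with Patronin, and those of eIF3a, eIF3c, eIF3h, eIF3l and eIF3m with other genes. In the cap binding group the range was from 18.5 to 208 CPM per 500 bp.

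**Figure D1:**
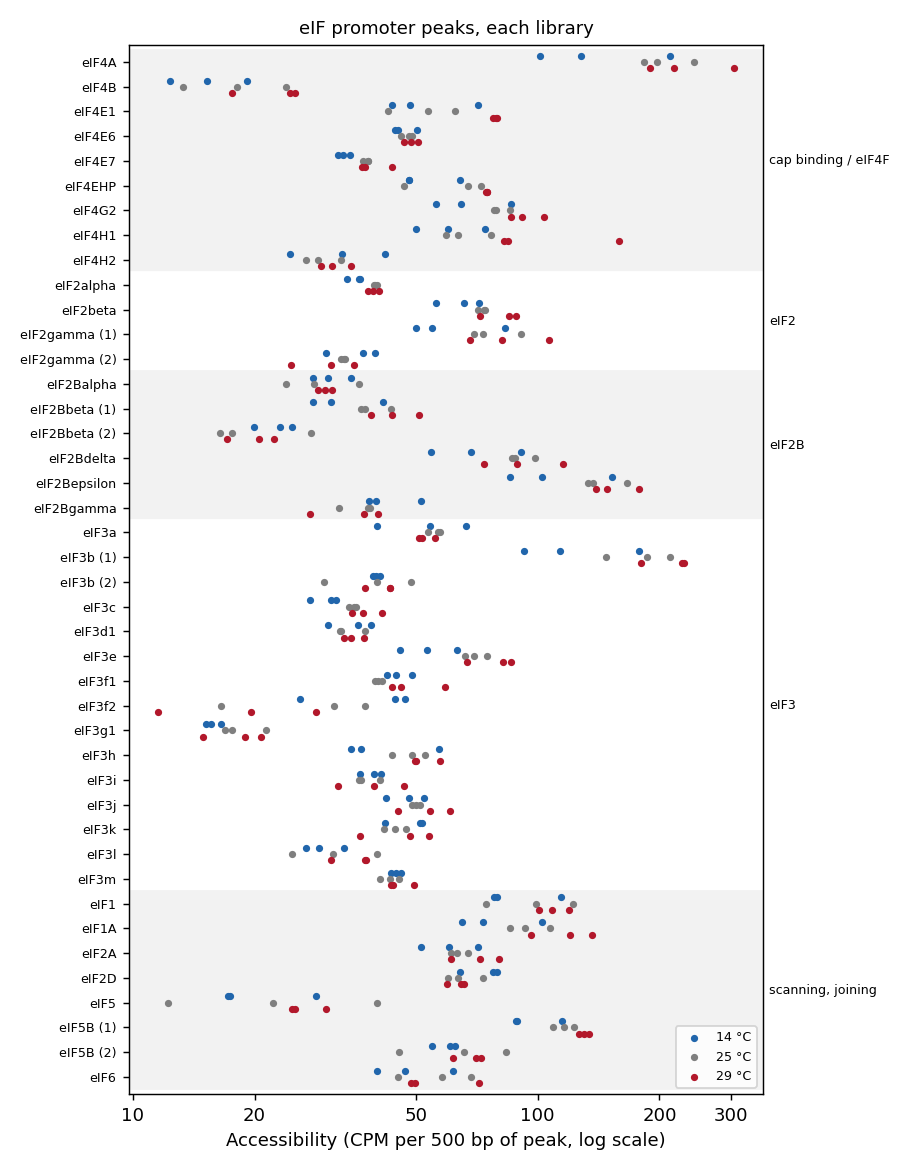
Accessibility of the 42 eIF promoter peaks in each library, in CPM per 500 bp of peak on a log scale, with 3 points per temperature (14 °C blue, 25 °C grey, 29 °C red) and peaks grouped by the role of the gene product. The peaks of eIF4A, eIF3b (1) and eIF2Bepsilon are the tallest at 25 °C, and in 11 of 42 peaks all 14 °C points lie below all 29 °C points.

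The comparison of 14 with 29 °C, the widest temperature difference, gave no eIF promoter peak past the threshold. In edgeR's quasi-likelihood test with Benjamini-Hochberg adjustment over all 17175 peaks, 0 of 42 eIF peaks and 1.22% of all peaks had an adjusted p under 0.05, and the lowest adjusted p among the eIF peaks was 0.117. At an unadjusted p under 0.05 there were 8 eIF peaks (19.0%), 7 lower and 1 higher at 14 °C, against 24.4% of the other promoter peaks and 33.3% of all peaks. The share among eIF peaks was near that of the other promoter peaks, and the count rested on single libraries. It was 17 without replicate 2 at 14 °C and 4 without replicate 3 at 29 °C. It was 2 without replicate 1 or replicate 3 at 14 °C or replicate 2 at 29 °C. Without replicate 1 at 29 °C, the peaks under this cutoff were those of eIF1A, eIF2beta, eIF3e, eIF4A, eIF4E1 and eIF4H1 and the upstream eIF3b peak. Shares of other peaks at this cutoff are not given for these fits. Without replicate 2 at 14 °C, 41.1% of the other promoter peaks and 49.7% of all peaks passed even the adjusted threshold. With all 9 libraries, the median log2 fold change was -0.23 for the eIF peaks, with quartiles of -0.43 and -0.02. It was -0.17 for the other promoter peaks and 0.02 for all peaks. It was -0.30 for the 22 eIF peaks shared with another gene and -0.16 for the 20 with no other gene. Fold changes were below 0 in 33 of 42 eIF peaks (78.6%) and in 65.2% of the other promoter peaks.

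In the fit of all 9 libraries, the precision allowed large changes to be bounded in most of these promoters. The median standard error was 0.20 on the log2 scale, and the 95% interval of the log2 fold change lay between -1 and 1 in 34 of 42 peaks. It did so in 5407 of 7903 other promoter peaks and in 9257 of all 17175 peaks. Without replicate 2 at 14 °C, the estimates of eIF4A (-1.05), the upstream eIF3b peak (-1.04) and eIF3f2 (1.25) lay outside these bounds. With all 9 libraries the estimates ranged from -0.81 for eIF4H1 to 1.01 for eIF3f2.

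Libraries of the same number deviated together at 14 and 29 °C, and a block for the replicate number gave 0 eIF peaks past the threshold, against 2.79% of all peaks. DESeq2 gave 1, eIF3e (DESeq2, adjusted p = 0.0487), against 12.6% of all peaks. Without replicate 2 at 14 °C, 15 eIF peaks passed in edgeR, 14 lower and 1 higher at 14 °C, against 49.7% of all peaks, and the median log2 fold change was -0.35. With the block fitted to only the 6 libraries compared, 17 passed, 16 lower and 1 higher, against 58.6% of all peaks. Among the other promoter peaks, 8.9% passed in DESeq2, 41.1% without replicate 2 at 14 °C and 47.5% with the block on 6 libraries, beside 2.38%, 35.7% and 40.5% of the eIF peaks. The last 2 shares of the eIF peaks are near those of the other promoter peaks.

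**Figure D2:**
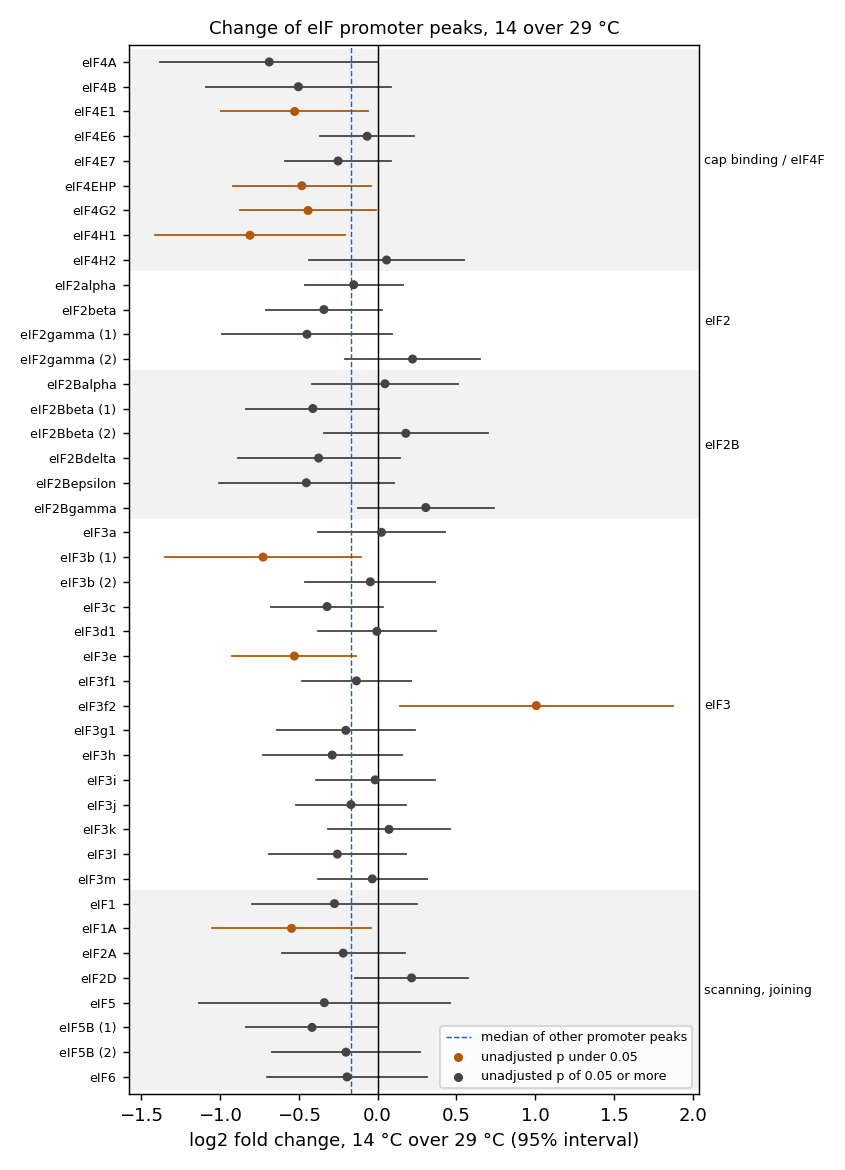
Log2 fold change of each eIF promoter peak, 14 °C over 29 °C, with its 95% interval from edgeR's fit of all 9 libraries, grouped by role. The dashed line is the median of the other promoter peaks (-0.17). The 8 peaks with an unadjusted p under 0.05 are drawn in orange, and none of the 42 passed the adjusted threshold.

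Among the genes of cap binding and eIF4F, the 9 peaks had the lowest median log2 fold change of the 5 role groups, at -0.48. Of the 9, 8 were below 0, against 65.2% of the other promoter peaks. In edgeR, 4 had an unadjusted p under 0.05, against 24.4% of the other promoter peaks and 33.3% of all peaks. None passed the adjusted threshold. The group was not tested as a set. For eIF4E1, the main cap binding protein (chr3L:9401545-9402045), the libraries had 48.5, 71.2 and 43.7 CPM at 14 °C, 42.8, 53.7 and 62.4 CPM at 25 °C, and 77.7, 79.1 and 79.3 CPM at 29 °C. All 14 °C libraries lay below all 29 °C libraries and overlapped with those at 25 °C. The log2 fold change, 14 over 29 °C, was -0.53 ± 0.21 (SE), with an adjusted p of 0.131 in edgeR, and without replicate 2 at 14 °C it was -0.77 (edgeR adjusted p = 0.0124).

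For eIF4EHP, a cap binding protein that represses translation, there were 48.3, 64.2 and 48.1 CPM at 14 °C, 46.9, 67.2 and 72.5 CPM at 25 °C, and 74.9, 74.4 and 75.2 CPM at 29 °C (log2 fold change, 14 over 29 °C, -0.48 ± 0.20 SE, edgeR adjusted p = 0.134). The 3 libraries at 29 °C were nearly equal and above all others. Without replicate 2 at 14 °C the estimate was -0.64 (edgeR adjusted p = 0.0240). This peak is shared with CG18428. The peak of eIF4H1, a gene of a helicase cofactor, is shared with CG34015. It had 50.0, 74.1 and 59.9 CPM at 14 °C, 59.4, 76.8 and 63.5 CPM at 25 °C, and 84.4, 82.5 and 159 CPM at 29 °C. The log2 fold change, 14 over 29 °C, was -0.81 ± 0.27 (SE, edgeR adjusted p = 0.117), and the highest value came from replicate 3 at 29 °C, the library with the fewest counts. Without that library the estimate was -0.44 and no longer the lowest of the eIF peaks, and without replicate 2 at 14 °C it was -0.96 (edgeR adjusted p = 0.0212).

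eIF4A showed a wide spread at 14 °C, with 101, 213 and 128 CPM, against 189, 306 and 217 CPM at 29 °C. Replicate 2 was the highest at both temperatures, so that the groups overlapped although each 14 °C library lay below the 29 °C library of the same number. The log2 fold change was -0.69 ± 0.31 (SE), with an adjusted p of 0.152 in edgeR. Without replicate 2 at 14 °C it was -1.05 (edgeR adjusted p = 0.0120). eIF4G2 had 56.2, 86.1 and 64.8 CPM at 14 °C, against 91.4, 104 and 86.2 CPM at 29 °C, without overlap (-0.44 ± 0.19 SE, edgeR adjusted p = 0.144), and without replicate 2 at 14 °C the estimate was -0.63 (edgeR adjusted p = 0.0162). eIF4B, with values between 12.4 and 19.1 CPM at 14 °C, against values between 17.6 and 25.2 CPM at 29 °C, had an estimate of -0.50. The eIF4E paralogs eIF4E6 and eIF4E7 were closer to 0, at -0.07 for eIF4E6 and -0.25 for eIF4E7, and eIF4H2 was at 0.06.

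The eIF2 and eIF2B genes had peaks with smaller differences. Among the 4 eIF2 peaks the median log2 fold change, 14 over 29 °C, was -0.25, and none had an unadjusted p under 0.05. eIF2alpha, the subunit whose phosphorylation lowers initiation, had 36.4, 36.2 and 33.8 CPM at 14 °C, 40.1, 39.5 and 39.7 CPM at 25 °C, and 40.6, 38.2 and 39.3 CPM at 29 °C. The replicates of each temperature lay close together. The 14 °C libraries lay below the others, by -0.15 ± 0.14 (SE) on the log2 scale relative to 29 °C, which was not past the threshold (edgeR adjusted p = 0.429, 95% interval from -0.46 to 0.16).

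eIF2beta, a second subunit of the eIF2 trimer, had 56.2, 71.6 and 65.7 CPM at 14 °C, against 71.9, 88.5 and 85.0 CPM at 29 °C. The groups did not overlap, by a narrow gap between 71.6 and 71.9 CPM. The GTP binding subunit eIF2gamma had 2 peaks with estimates of opposite sign, -0.45 ± 0.24 (SE) over the start and 0.22 ± 0.19 (SE) upstream, and the libraries at 14 and 29 °C overlapped in both. Their difference was not tested. Without replicate 2 at 14 °C the estimate over the start was -0.72 (edgeR adjusted p = 0.0227).

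Among the 6 eIF2B peaks, 3 estimates were below 0 and 3 above, with a median of -0.16. eIF2Bepsilon had 85.4, 153 and 102 CPM at 14 °C, against 140, 178 and 149 CPM at 29 °C (-0.45 ± 0.25 SE, edgeR adjusted p = 0.207). Here too replicate 2 was the highest at both temperatures, and without it at 14 °C the log2 fold change was -0.73 (edgeR adjusted p = 0.0169). eIF2Bgamma, with 51.5, 39.9 and 38.3 CPM at 14 °C against 27.4, 37.2 and 40.3 CPM at 29 °C, had the highest estimate of the group (0.31 ± 0.20 SE, edgeR adjusted p = 0.257), with overlapping libraries.

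The 15 eIF3 peaks, the largest group, had a median log2 fold change of -0.13. Of the 15, 12 were below 0, against 65.2% of the other promoter peaks. In edgeR, 3 had an unadjusted p under 0.05, against 24.4% of the other promoter peaks and 33.3% of all peaks. eIF3e, a subunit that budding yeast lacks, had 45.8, 63.3 and 53.2 CPM at 14 °C, 69.6, 66.2 and 75.1 CPM at 25 °C, and 66.8, 85.8 and 82.1 CPM at 29 °C. All 14 °C libraries lay below all those at 25 and 29 °C. The log2 fold change, 14 over 29 °C, was -0.53 ± 0.18 (SE, edgeR adjusted p = 0.117), or -0.66 without replicate 2 at 14 °C (edgeR adjusted p = 0.0165), and 14 over 25 °C it was -0.37 ± 0.18 (SE, edgeR adjusted p = 0.654). One of the TCT initiators printed above lies within 10 bases of the annotated start of eIF3e.

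eIF3b, a scaffold subunit, had 2 peaks, both shared with Patronin, that differed in level and in estimate. The upstream peak (chr2R:17535346-17535846), 367 bp from the start of eIF3b at its edge and shared with Patronin, had 92.6, 178 and 113 CPM at 14 °C, 147, 186 and 213 CPM at 25 °C, and 180, 227 and 229 CPM at 29 °C. The 14 and 29 °C libraries did not overlap, with -0.73 ± 0.28 on the log2 scale (SE, edgeR adjusted p = 0.128), or -1.04 without replicate 2 at 14 °C (edgeR adjusted p = 0.00990). Over the start itself there were 39.9, 40.8 and 39.3 CPM at 14 °C, against 37.5, 43.2 and 43.1 CPM at 29 °C, an estimate of -0.05 ± 0.19 (SE).

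eIF3f2, a paralog of eIF3f1, had the highest of the 3 eIF3 estimates above 0. Its peak lies in the coding exon, 150 bp from the start at its edge (chr2R:6201003-6201503), and had 44.6, 25.9 and 47.1 CPM at 14 °C, 37.4, 31.5 and 16.6 CPM at 25 °C, and 19.6, 11.5 and 28.3 CPM at 29 °C. The 14 °C library was above the 29 °C library in each pair of numbers, but the groups overlapped, with 1.01 ± 0.39 on the log2 scale (SE, edgeR adjusted p = 0.128), or 1.25 without replicate 2 at 14 °C (edgeR adjusted p = 0.0240). The paralog eIF3f1, with a TCT initiator and DRE cores near its start, had 49.0, 44.8 and 42.5 CPM at 14 °C, against 45.9, 59.0 and 43.7 CPM at 29 °C (-0.13 ± 0.16 SE). Other eIF3 promoters were near 0, such as eIF3a (0.02 ± 0.18 SE), eIF3i (-0.02 ± 0.17 SE) and eIF3m (-0.03 ± 0.16 SE).

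In the group of scanning, start codon choice and subunit joining, 7 of 8 estimates were below 0, against 65.2% of the other promoter peaks. Their median was -0.25. The peak of eIF1A, which acts with eIF1 in scanning, has its centre in an intron and is shared with Vps39. It does not cover the start, which lies 248 bp from its edge. This peak had 65.1, 103 and 73.5 CPM at 14 °C, against 96.1, 136 and 120 CPM at 29 °C (-0.55 ± 0.23 SE, edgeR adjusted p = 0.136), and replicate 2 at 14 °C overlapped with the 29 °C libraries. Without that library the estimate was -0.76 (edgeR adjusted p = 0.0157). The peak over the start of eIF5B, the GTPase of subunit joining, had 89.1, 115 and 88.3 CPM at 14 °C, 109, 116 and 123 CPM at 25 °C, and 126, 134 and 131 CPM at 29 °C. The groups at 14 and 29 °C did not overlap (-0.42 ± 0.19 SE, edgeR adjusted p = 0.153), and without replicate 2 at 14 °C the estimate was -0.55 (edgeR adjusted p = 0.0206). The exception was eIF2D, a factor of noncanonical initiation, with 77.5, 64.5 and 79.4 CPM at 14 °C, against 65.9, 59.8 and 64.8 CPM at 29 °C (0.22 ± 0.16 SE).

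Over the 3 temperatures, the order of the means was 14 below 25 below 29 °C in 24 of 42 eIF peaks (57.1%) and in 45.1% of the other promoter peaks. The opposite order occurred in 5 eIF peaks (11.9%) and in 22.6% of the others. All 14 °C libraries lay below all 29 °C libraries in 11 eIF peaks (26.2%), against 18.1% of the others, and all lay above in 0, against 8.29%. In pairs of libraries with the same number, 14 °C was the lower in each pair in 25 eIF peaks (59.5%), against 47.0% of the others, and the higher in each pair in 2 (4.76%), against 21.7%.

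**Figure D3:**
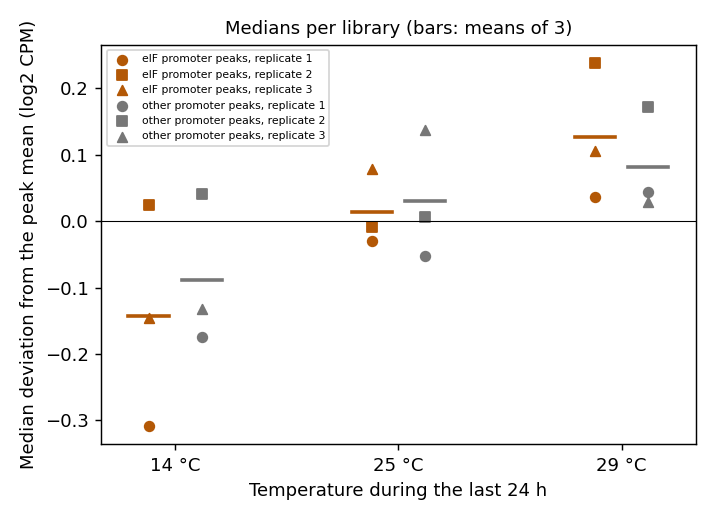
Median deviation of log2 CPM from each peak's mean over 9 libraries, for eIF promoter peaks (orange) and other promoter peaks (grey), by temperature. Each symbol is a library, and bars are means of 3; at 14 °C the eIF medians are -0.31, 0.02 and -0.15, and both sets have their lowest mean there.

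The medians per library followed the same direction in both sets. The median deviation of eIF peaks from their means was -0.31, 0.02 and -0.15 at 14 °C, -0.03, -0.01 and 0.08 at 25 °C, and 0.04, 0.24 and 0.11 at 29 °C. For the other promoter peaks it was -0.17, 0.04 and -0.13 at 14 °C, -0.05, 0.01 and 0.14 at 25 °C, and 0.04, 0.17 and 0.03 at 29 °C. The difference between the sets, eIF peaks minus others, was -0.05 ± 0.07 at 14 °C, -0.02 ± 0.04 at 25 °C and 0.05 ± 0.05 at 29 °C (SD, n = 3 each). These differences were about as large as the spread between replicates.

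Differences relative to 25 °C were smaller. Between 14 and 25 °C, 0 of 42 eIF peaks passed in edgeR's quasi-likelihood test, against 0.00582% of all peaks, and 0 had an unadjusted p under 0.05, against 5.33%. DESeq2 also gave 0. The median log2 fold change was -0.13 for eIF peaks and -0.09 for the other promoter peaks. Without replicate 2 at 14 °C, an unadjusted p under 0.05 was found for 11 eIF peaks, against 32.3% of all peaks and 31.6% of the other promoter peaks in that fit, and 0 passed the threshold. Between 29 and 25 °C, 0 eIF peaks passed in edgeR or in DESeq2, against 0.0% of all peaks in edgeR, and the median log2 fold change was 0.10 for eIF peaks and 0.05 for the others. At an unadjusted p under 0.05 there were 2 eIF peaks, eIF4E1 (0.57 ± 0.21 SE) and eIF4H1 (0.70 ± 0.27 SE), both higher at 29 °C, against 4.58% of all peaks. The count was 0 without replicate 1 at 25 °C, where the estimate of eIF4E1 was 0.44 and that of eIF4H1 0.62. It was 1 without replicate 3 at 29 °C, where the estimate of eIF4H1 was 0.31. The 14, 25 and 29 °C libraries are shared between these comparisons.

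The size of the difference between 14 and 29 °C went along with the height of the peak. Across the 42 eIF peaks, the level at 25 °C and the log2 fold change had a Spearman's rho of -0.57 and a Pearson's r of -0.53, and across the other promoter peaks a rho of -0.62. Peaks are no independent replicates, since they share the libraries. The upper 21 eIF peaks by level had a median log2 fold change of -0.42 and the lower 21 peaks one of -0.05, while other promoter peaks in the same ranges of level had medians of -0.38 and 0.03. When each library was adjusted by offsets against peak height, the upper 21 eIF peaks had a median of -0.13 and the lower 21 one of -0.21, against -0.12 and -0.18 for the others. With these offsets the medians of all eIF peaks and of the other promoter peaks were both -0.15, and 0 eIF peaks passed the threshold.

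**Figure D4:**
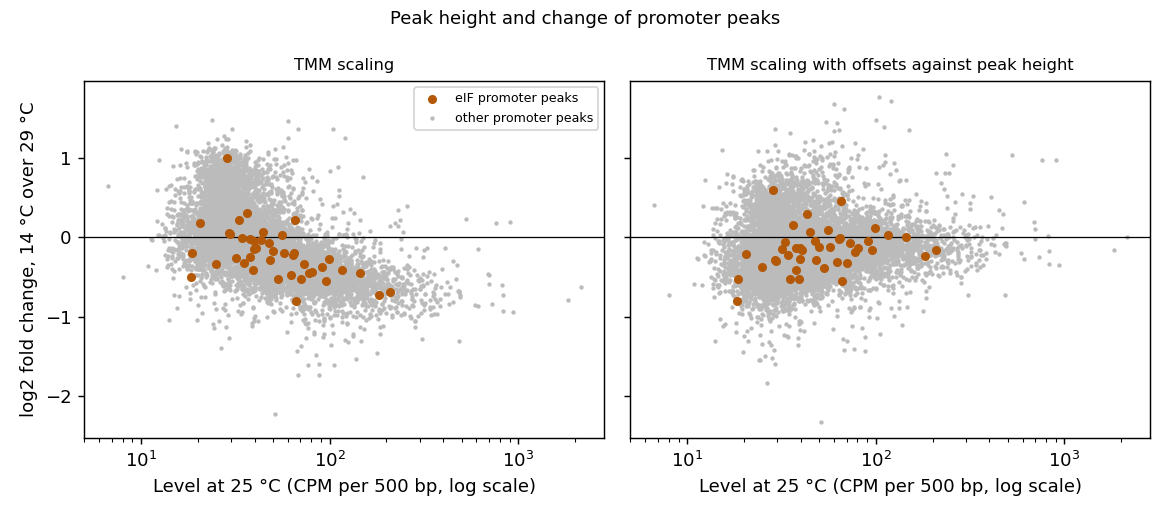
Level at 25 °C (CPM per 500 bp, log scale) against log2 fold change, 14 over 29 °C, for eIF promoter peaks (orange) and other promoter peaks (grey), with TMM scaling on the left and with offsets against peak height on the right. The eIF peaks follow the slope of the other promoters on the left (rho of -0.57 and -0.62), and on the right rho is 0.31 and 0.095.

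Other genes of translation were examined by lists. Between 14 and 29 °C, 1.22% of all peaks passed in edgeR. An unadjusted p under 0.05 was found for 33.3% of all peaks and 24.4% of the other promoter peaks. Among the regulators of initiation, such as the eIF4E binding protein Thor and the kinase S6k, 17 of 18 genes had a promoter peak. In edgeR, 0 of their 23 peaks passed between 14 and 29 °C and 2 had an unadjusted p under 0.05. Their median log2 fold change was -0.29. The lowest was a peak of S6k at -0.84 ± 0.23 (SE, edgeR adjusted p = 0.0909). Among elongation and termination factors, 8 of 9 genes had 13 peaks, of which 0 passed, 2 had an unadjusted p under 0.05, and the median was -0.13. DENR and eEF1gamma had no promoter peak.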

How the data were processed

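Accessibility was measured by ATAC-Seq in 9 libraries of S2R+ cells. The authors trimmed reads with Trimmomatic 0.38, mapped them to dm6 with Bowtie2, removed duplicates with Picard, called peaks per library with MACS2 and counted reads in consensus peaks re-centred on summits with DiffBind. The deposited raw counts, whole numbers per peak and library, were the input of all tests. The authors also deposited a normalized signal, raw counts minus 1 divided by a size factor per library, used here only to recover the size factors. Their removal of peaks of low reproducibility was not repeated, and all 17175 peaks were kept. Whether peak starts count from 0 or 1 is not stated.

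Counts were fitted with edgeR 4.0.16 in R 4.3.3 (TMM scaling, robust quasi-likelihood fit of 9 libraries with temperature as the only factor, 6 residual degrees of freedom, Benjamini-Hochberg adjustment per comparison, threshold 0.05). Standard errors are the log2 fold change divided by the square root of F. Log2 CPM had a prior count of 2 in the offsets against peak height and in the check of pairing. The medians per library used log2 CPM without a prior count. Start sites came from Ensembl release 115, and sequences from the RefSeq dm6 genome. The annotation names eIF5A and eIF4A3 differently, so neither is a member. Members' mean counts were 117 to 1393, with a median of 362 that has a counting error of 5.26%. The common biological coefficient of variation over all peaks was 22.7%. According to the paper's methods, the replicates were separate dishes; whether dishes of 1 number were handled together is not given in the sources used here.

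Members, gene lists, motifs and tests were chosen with earlier results of these data known. All members could be named. Those described in full had the smallest unadjusted p in either direction, were core genes of eIF4F, eIF2 or eIF2B, or were the tallest or lowest at 25 °C; eIF1A, eIF4G2 and eIF5B were added after their values were seen. Replicate numbers were checked for pairing by the correlation of deviations from group means. Between 14 and 29 °C it was 0.634, 0.826 and 0.538 for numbers 1, 2 and 3, so they were taken as pairs by a rule of over 0.1 in each. Replicate 1 at 14 °C with replicate 3 at 29 °C had 0.559 and replicate 3 with replicate 1 had 0.551. The values set replicate 2 apart from 1 and 3 but do not single out the numbers 1 and 3 as pairs. In the other comparisons, numbers 2 and 3 had negative values. Alternatives were RLE, total count and the authors' scaling, loess offsets (span 0.3) against peak height, DESeq2 1.42.0, a replicate block alone or together with the offsets, only the 6 libraries compared, a mean count minimum of 182, each library left out, a window of 250 bp, 1 peak per gene and an adjusted p under 0.01. The block on 6 libraries was added after seeing the data. The procedure was tested on simulated data.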

Additional observations from a re-analysis of the deposited data

How the results depend on the processing

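In the comparison of 14 with 29 °C, 0 eIF promoter peaks passed in most settings; DESeq2 gave 1, the block on only the 6 libraries 17, and leaving out 1 library gave 0 to 15, the highest without replicate 2 at 14 °C. The replicate block on 9 libraries gave 0. Between 14 and 25 °C and between 29 and 25 °C, 0 passed in every setting run.

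The median log2 fold change of eIF peaks minus that of other promoter peaks was -0.07 between 14 and 29 °C and -0.03 between 14 and 25 °C. Leaving out 1 library gave -0.114 (without replicate 1 at 29 °C) to -0.0586 and -0.0444 (without replicate 1 at 25 °C) to -0.00826, and the low count filter -0.0168 and 0.0188. Between 29 and 25 °C it was 0.05, and 0.0402 to 0.0841, the highest without replicate 1 at 25 °C. With offsets against peak height, the first 2 were -0.000270 and 0.0428, and with the replicate block and these offsets 0.00408 and 0.0469.

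The sign of some peaks turned with offsets against peak height. For the upstream eIF2gamma peak, 14 over 29 °C, the log2 fold change was -0.0639 with offsets and -0.0486 with offsets and replicate block, for eIF2Bepsilon 0.00788 and 0.00755, and for the downstream eIF2Bbeta peak -0.209 and -0.199. For the upstream eIF2gamma peak, 29 over 25 °C, it was 0.0181 and 0.00144. Of 461 alternatives for 29 peak values, 432 kept direction and side of the threshold, 21 kept direction and passed it, and 8 turned. The cause was not tested. The study had 3 libraries per temperature, and the part of depth in the lack of calls was not tested.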
